A study of Mus musculus with 12 samples.

Results

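The genes described here are 33 genes for lysosomal hydrolases and their activator proteins, cathepsins left aside. They were chosen by name, as genes that are the single symbol of a probe set on the array. All 33 were measured, by 34 probe sets, among 19937 genes with a usable probe set. Arsb has 2 probe sets and each other gene has 1. One of the genes, Hgsnat, encodes a transferase that spans the lysosomal membrane.

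Lysosomal hydrolases are made in the endoplasmic reticulum, most are tagged with mannose 6-phosphate in the Golgi, and receptors carry them to the acidic lysosome, where each removes a particular sugar, sulfate, lipid or peptide. Activator proteins such as the saposins lift lipids out of membranes so that the enzymes can reach them. Many lysosomal genes carry an E-box of the kind bound by the MiT/TFE factors TFEB, TFE3 and MITF. The entry of these factors into the nucleus is restrained by mTORC1 through the Rag GTPases. Macrophages, which digest other cells, are rich in lysosomal hydrolases. Loss of a single hydrolase causes a lysosomal storage disease in which blood cells, too, can store undigested material.

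RNA was hybridised to Affymetrix arrays from progenitors sorted out of the bone marrow of 3 WT and 3 KO mice. LSK cells, which lack lineage antigens and carry Sca1 and c-kit, hold stem cells and multipotent progenitors. Granulocyte-macrophage progenitors (GMP) lack lineage antigens and Sca1 and carry c-kit, CD34 and Fcγ receptors. With 3 arrays in each of 4 groups (LSK WT, LSK KO, GMP WT, GMP KO), 12 arrays were compared, and p-values measure the spread between the samples of these few mice.

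WT mice were Mx-Cre C57BL/6J with Lamtor2 wt/wt, and KO mice were C57BL/6J Mx-Cre Lamtor2f/f. That is how the protocols name them, while the strain field of the labels reads Mx1-Cre wt/wt for all groups, so the Cre genotype is not settled here. All groups, WT included, had been injected intraperitoneally with pIpC, and cells were sorted at day 14 after it. Mx-Cre is driven by an interferon-inducible promoter that pIpC switches on in blood cells of all kinds and in other tissues, so deletion was not limited to progenitors. The sources used here give neither the age of the mice nor which LSK and GMP arrays share a mouse. Lamtor2 encodes a subunit of Ragulator, the lysosomal anchor of the Rag GTPases.

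Values are RMA values on a log2 scale, in which 1 unit is a doubling of signal, and array medians lay between 5.96 and 6.18. Lamtor2 lay between 10.31 and 10.82 on the WT arrays and between 4.95 and 5.77 on the KO arrays, so each library matched its label for this gene. The lowest value of any member on any array was 6.12. An array value has no true 0, and the level of 1 probe set is no measure of background for another. GMP KO replicate 1 stood apart from the other arrays, with a mean correlation of 0.979 with its group against 0.985 to 0.996 for the other arrays, and an array weight of 0.19, so results that include GMP KO are given with and without it where it matters.

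Markers of the sorted populations followed the labels in WT arrays. The mean over 11 stem and multipotent progenitor markers lay between 8.44 and 8.59 in LSK WT and between 6.29 and 6.53 in GMP WT, and the mean over 9 GMP markers between 8.50 and 9.09 in LSK WT and between 10.81 and 10.87 in GMP WT. In LSK KO arrays the stem markers lay between 7.88 and 8.12 and the GMP markers between 9.35 and 9.71. In GMP KO arrays the stem markers lay between 6.30 and 6.76. The GMP markers lay between 10.53 and 10.69 there, below the GMP WT arrays. The mean over 11 monocyte markers lay between 6.99 and 7.61 in LSK WT and between 8.0 and 8.27 in LSK KO, and Fcgr3, an Fcγ receptor that is not part of the LSK gate, had a mean of 5.91 in LSK WT and 8.27 in LSK KO. In GMP the mean over the monocyte markers lay between 9.01 and 9.08 in WT and between 8.90 and 9.21 in KO. Of these markers 3 were higher and 5 lower in GMP KO (adjusted p under 0.05, limma), against 5.78% and 10.3% of all genes. The part of these shifts in the levels of the hydrolases was not tested. Each array is a bulk sample, in which a changed share of cells of a type and a changed amount of RNA per cell cannot be told apart.

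Loss of Lamtor2 was accompanied by higher transcript levels of many of these genes in both populations. In LSK, 13 of 33 members were higher in KO than in WT and 0 were lower at an adjusted p under 0.05 (limma, adjusted over all 19937 genes), against 2.49% of all genes higher and 1.96% lower. At an unadjusted limma p under 0.05, 19 members were higher and 0 lower, against 1626 higher and 1547 lower of all 19937 genes. In GMP, 18 members were higher and 1, Arsb, was lower, against 5.78% of all genes higher and 10.3% lower. The median difference between KO and WT over the members was 0.40 in LSK and 0.46 in GMP, and over all genes it was -0.013 and 0.015.

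The arrays themselves show how separate the groups were. In LSK all 3 KO arrays lay above all 3 WT arrays for 23 of 33 members, against 12.4% of all genes, and below them for 1, Ids, against 13.2% of all genes. In GMP they lay above for 22 members, against 12% of all genes, and below for 1, Arsb, against 17.6%. The mean over the 33 members lay between 8.25 and 8.33 on the LSK WT arrays and between 8.70 and 8.86 on the LSK KO arrays. In GMP it lay between 8.53 and 8.66 on the WT arrays and between 8.98 and 9.25 on the KO arrays, with the lowest of these on GMP KO replicate 1. These means are a description of the arrays and were not tested.

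Of the members, 10 were higher in KO in both populations: Gaa, Man2b1, Gla, Galc, Asah1, Psap, Npc2, Tpp1, Scpep1 and Grn. They make up 76.9% of the 13 members called in LSK and 55.6% of the 18 called higher in GMP. Glb1, Lipa and Ppt1 passed in LSK and missed the threshold in GMP. Fuca1, Idua, Ids, Sgsh, Naglu, Arsa, Dpp7 and Acp2 passed in GMP and missed it in LSK. Whether an effect differed between the populations is tested separately. In neither population did Neu1, Manba, Aga, Hgsnat, Gusb, Galns, Hexa, Smpd1, Gm2a, Pla2g15 or Acp5 pass.

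**Figure D1:**
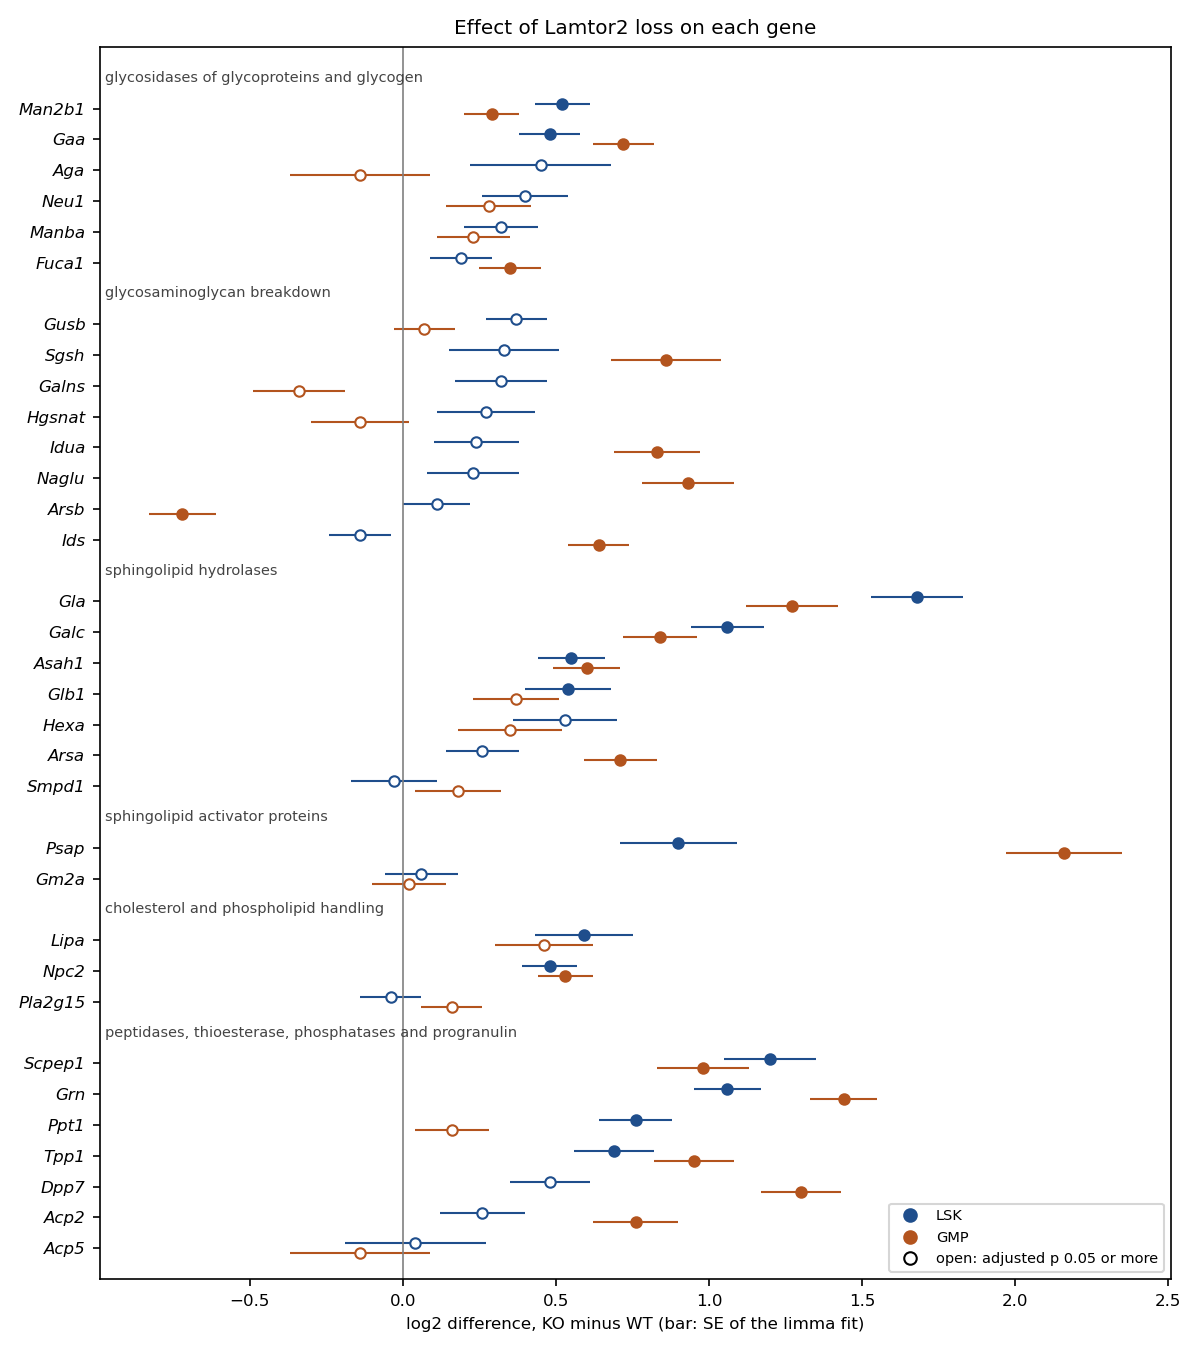
Difference between KO and WT for each of the 33 genes in LSK (blue) and GMP (orange), on the log2 scale, with the SE of the limma fit as bars and genes ordered by role. Filled points passed an adjusted p of 0.05. Most points lie to the right of 0, Psap in GMP reaches 2.16 and Gla in LSK 1.68, and Arsb in GMP, at -0.72, is the filled point to the left of 0.

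The E-box letters CACGTG were looked for in the promoters, because they are the core of the sites that MiT/TFE factors bind. RefSeq windows on GRCm38.p6 running from 250 bases before to 50 bases after a start were at hand for 29 of the 33 genes; Aga, Hgsnat, Galns and Asah1 had none. The letters read the same on both strands. They were found in 7 of the 29 genes (24.1%), Gla, Dpp7, Gaa, Glb1, Naglu, Sgsh and Arsa, against 8.09% of the 27025 genes in the table and 9.5% of the 15613 of them that were measured on the array. The longer TCACGTGA, which contains the E-box and lies at the core of the CLEAR element of lysosomal genes, was found in Gla and Dpp7, 6.9% of the 29, against 1.12% of genes in the table and 1.52% of those measured. Gla, the member with the largest increase in LSK, holds it at 2 places, with the first E-box base 227 and 194 bases before its start.

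The 250 bases before the start of Gla are shown because they carry both copies, and for the other genes a stretch around the E-box is shown so that the flanking bases can be compared. Each is written 5′ to 3′ on the strand of the gene, with the E-box in capitals. On GRCm38.p6 they lie at chrX:134601006-134601255 on the minus strand (Gla), chr2:25356380-25356425 on the minus strand (Dpp7), chr11:119267803-119267848 on the plus strand (Gaa), chr9:114401010-114401055 on the plus strand (Glb1), chr11:101070001-101070046 on the plus strand (Naglu), chr11:119355514-119355559 on the minus strand (Sgsh) and chr15:89477425-89477460 on the minus strand (Arsa). All lie upstream of the annotated start of their gene.
Gla: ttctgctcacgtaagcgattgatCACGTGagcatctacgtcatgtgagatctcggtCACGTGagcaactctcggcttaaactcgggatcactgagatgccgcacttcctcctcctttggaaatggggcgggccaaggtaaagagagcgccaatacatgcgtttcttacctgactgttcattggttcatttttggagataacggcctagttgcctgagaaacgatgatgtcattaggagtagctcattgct
Dpp7: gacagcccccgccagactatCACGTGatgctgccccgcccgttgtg
Gaa: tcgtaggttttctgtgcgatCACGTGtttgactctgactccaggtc
Glb1: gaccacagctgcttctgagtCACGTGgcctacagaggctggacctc
Naglu: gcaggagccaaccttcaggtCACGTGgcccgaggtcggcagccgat
Sgsh: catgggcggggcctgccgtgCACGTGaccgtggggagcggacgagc
Arsa: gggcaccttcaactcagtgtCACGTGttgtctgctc

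On the strand of the gene, a T stands before the E-box in 6 of these genes, and the exception is Sgsh. In Sgsh an A follows the E-box, so the T stands before it when the other strand is read. The first E-box base lies 73 bases before the start in Dpp7 and in Naglu, 140 in Gaa, 48 in Glb1, 29 in Sgsh and 16 in Arsa. All 7 genes with the letters were higher in KO in LSK or in GMP (3 in LSK and 6 in GMP), with median differences of 0.48 and 0.86. Of the 22 genes whose window lacks them, 13 were higher in either population (9 in LSK and 11 in GMP), with medians of 0.39 and 0.35, among them Psap and Grn. These counts describe letters in 1 window per start, were not tested, and do not show that a factor was bound there or elsewhere.

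Among the enzymes that take sugars from glycoproteins and glycogen, 2 of 6 were higher in KO in LSK and 3 of 6 in GMP. Gaa, the acid alpha-glucosidase that degrades glycogen in the lysosome, lay at 8.58, 8.65 and 8.59 on the LSK WT arrays and at 9.17, 9.01 and 9.07 on the LSK KO arrays. In GMP it lay at 8.50, 8.66 and 8.42 in WT and at 9.40, 9.14 and 9.21 in KO. In both populations every KO array lay above every WT array. The difference was 0.48 (SE 0.10, adjusted p = 0.0141, limma) in LSK and 0.72 (SE 0.10, adjusted p = 3.21e-04) in GMP, a 1.65-fold increase.

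Man2b1, the alpha-mannosidase of the lysosome, lay at 9.84, 9.80 and 9.84 in LSK WT and at 10.50, 10.21 and 10.32 in LSK KO. Its GMP values were 10.22, 10.29 and 10.30 in WT and 10.48, 10.55 and 10.64 in KO. The LSK WT arrays were nearly identical to each other and well below the LSK KO arrays, while in GMP the gap was small. The differences were 0.52 (SE 0.09, adjusted p = 0.00588) in LSK and 0.29 (SE 0.09, adjusted p = 0.0475) in GMP. Fuca1, an alpha-fucosidase, rose in GMP from 9.39 ± 0.03 to 9.74 ± 0.14 (SD, n = 3 each; adjusted p = 0.0237, limma), and in LSK its difference of 0.19 did not pass. The sialidase Neu1, the beta-mannosidase Manba and Aga, which cuts the bond between sugar and asparagine, did not pass in either population. In that order their LSK differences were 0.40, 0.32 and 0.45 and their GMP differences 0.28, 0.23 and -0.14. Aga turned to 0.23 in GMP without GMP KO replicate 1, which read 7.54 against 8.62 and 8.65 on the other GMP KO arrays.

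The enzymes that break down glycosaminoglycans, the long sulfated sugar chains of the matrix, did not change past the threshold in LSK (0 of 8 in either direction), while in GMP 4 were higher and 1 was lower. At an unadjusted limma p under 0.05, 2 of the 8 (Gusb and Galns) were higher in LSK and 0 lower, against 1626 and 1547 of all 19937 genes. The LSK differences ran from -0.14 for Ids to 0.37 for the beta-glucuronidase Gusb (adjusted p = 0.058, limma). Ids, the iduronate sulfatase, lay at 7.80, 7.76 and 7.66 in LSK WT and at 7.57, 7.61 and 7.61 in LSK KO. The GMP values were 6.87, 6.95 and 6.74 in WT and 7.33, 7.54 and 7.61 in KO. The GMP KO arrays all lay above the GMP WT arrays, and 1 of them, at 7.61, lay as high as the LSK KO arrays. The increase in GMP was 0.64 (SE 0.10, adjusted p = 6.60e-04, limma), or 1.56-fold.

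Arsb, a sulfatase that acts on dermatan and chondroitin sulfate, went the other way in GMP. It lay at 10.31, 10.21 and 10.01 on the GMP WT arrays and at 9.59, 9.43 and 9.37 on the GMP KO arrays, which do not overlap. In LSK it lay at 8.51, 8.48 and 8.59 in WT and at 8.78, 8.49 and 8.65 in KO, which overlap. Arsb fell by 0.72 in GMP (SE 0.11, adjusted p = 6.88e-04, limma), a 1.64-fold decrease, and its LSK difference of 0.11 did not pass. The second Arsb probe set gave a difference of -0.57 in GMP, and in LSK it gave -0.11, so that the sign of the LSK difference depends on the probe set.

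Naglu, Sgsh and Idua, enzymes of heparan sulfate breakdown like Ids, rose in GMP as well. Naglu, an N-acetylglucosaminidase, rose by 0.93 (SE 0.15, adjusted p = 8.53e-04), the heparan sulfamidase Sgsh by 0.86 (SE 0.18, adjusted p = 0.00531) and the iduronidase Idua by 0.83 (SE 0.14, adjusted p = 0.00138). Sgsh read 7.52 on GMP KO replicate 1 and 8.41 and 7.94 on the other GMP KO arrays, all above the GMP WT range of 6.95 to 7.18, and without that array its increase was 1.08. Naglu and Sgsh are among the genes with an E-box in the window. Hgsnat, which acetylates heparan sulfate across the lysosomal membrane, differed by 0.27 in LSK and -0.14 in GMP, and the GMP value was 0.06 without GMP KO replicate 1. Galns, a sulfatase of keratan and chondroitin sulfate, differed by 0.32 in LSK and by -0.34 in GMP, and Gusb by 0.07 in GMP. None of these passed.

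**Figure D2:**
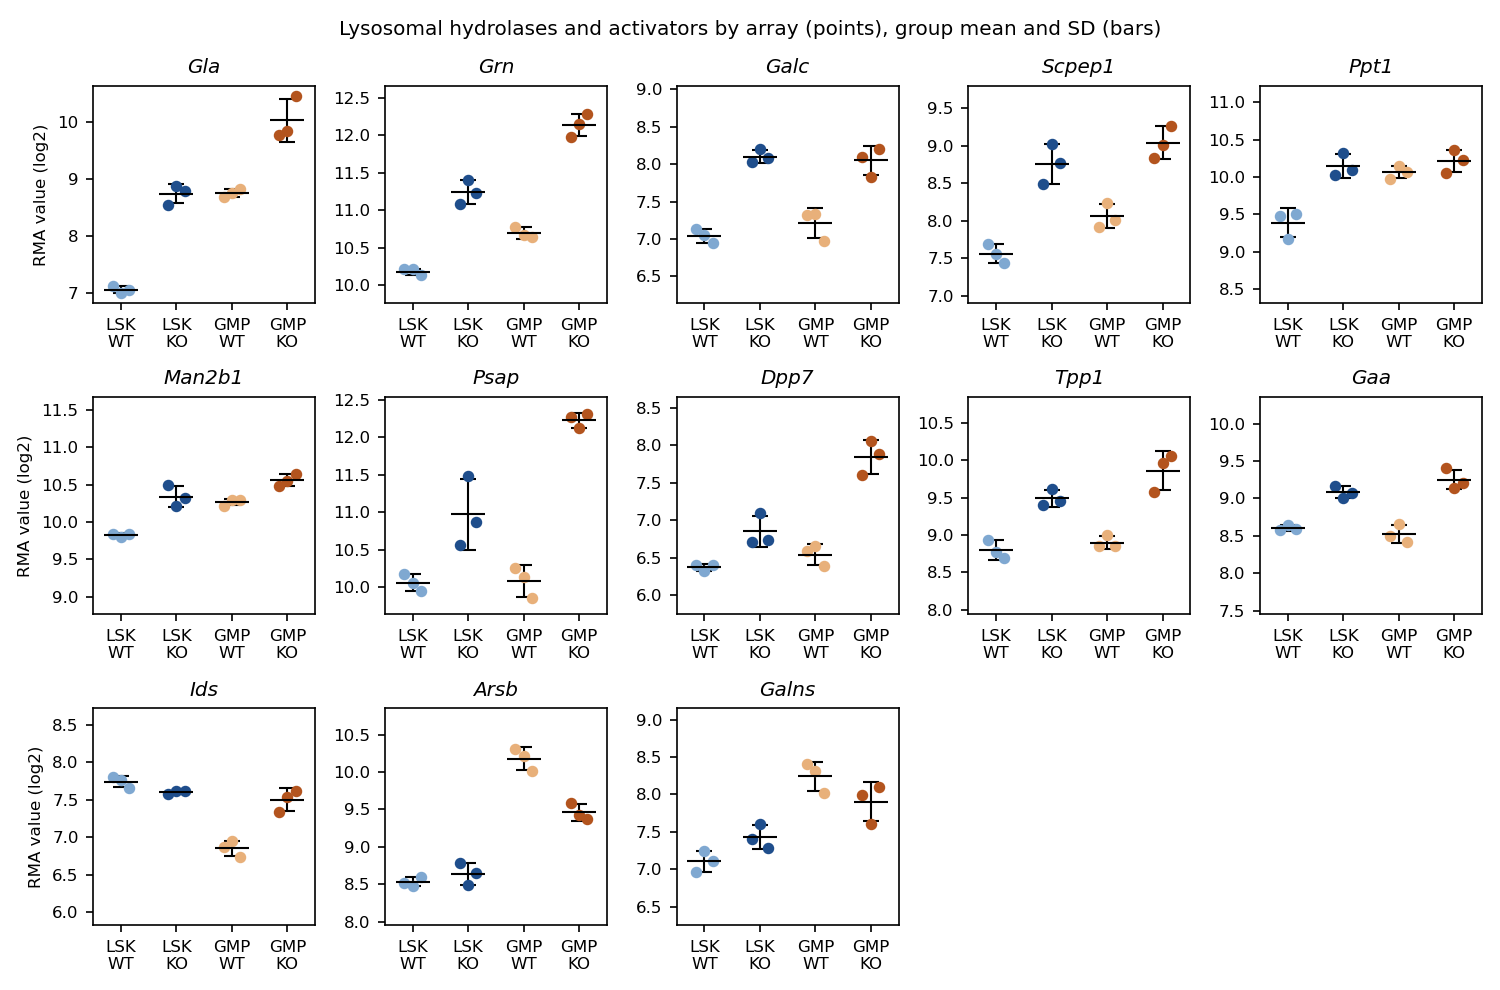
RMA values (log2) on each of the 12 arrays for the 13 genes given array by array, as points, with the mean and SD of the 3 arrays of a group as bars. The vertical axes start at different values, so positions are to be compared within a panel. In the Gla panel the LSK KO arrays, at 8.54 to 8.88, overlap the GMP WT arrays, at 8.68 to 8.82.

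Among the hydrolases of sphingolipids, 4 of 7 rose in LSK and 4 of 7 in GMP. Gla, the alpha-galactosidase A that trims globosides, lay at 7.12, 7.0 and 7.05 in LSK WT and at 8.54, 8.88 and 8.79 in LSK KO. In GMP it lay at 8.68, 8.75 and 8.82 in WT and at 9.76, 9.84 and 10.45 in KO. The groups do not overlap in either population, and the LSK KO arrays overlap the GMP WT arrays, a pair that was not tested. Gla rose by 1.68 in LSK (SE 0.15, adjusted p = 5.25e-05, limma), 3.2-fold, and by 1.27 in GMP (SE 0.15, adjusted p = 1.33e-04), 2.41-fold.

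Galc, the galactosylceramidase, lay at 7.13, 7.06 and 6.95 in LSK WT and at 8.03, 8.20 and 8.08 in LSK KO. Its GMP values were 7.32, 7.33 and 6.98 in WT and 8.10, 7.83 and 8.20 in KO. Every KO array lay above every WT array of either population, although Galc has no E-box in its window. The increase was 1.06 in LSK (SE 0.12, adjusted p = 3.11e-04, limma) and 0.84 in GMP (SE 0.12, adjusted p = 5.27e-04). Asah1, the acid ceramidase, rose by 0.55 in LSK (adjusted p = 0.0137) and 0.60 in GMP (adjusted p = 0.00288). Glb1, the acid beta-galactosidase, rose in LSK from 8.71 ± 0.07 to 9.25 ± 0.14 (SD, n = 3 each; adjusted p = 0.0395, limma), and Arsa, the sulfatase of sulfatide, rose in GMP by 0.71 (adjusted p = 0.00154).

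GMP KO replicate 1 weighed on the remaining sphingolipid hydrolases. Glb1 differed by 0.37 in GMP with all arrays (adjusted p = 0.0876, limma) and by 0.54 without it (adjusted p = 0.00456). Hexa, the alpha subunit of beta-hexosaminidase, went from 0.35 to 0.58 in GMP on leaving it out (adjusted p = 0.211 and 0.00971), and the acid sphingomyelinase Smpd1 from 0.18 to 0.36 (adjusted p = 0.477 and 0.0328). That array read lower than the other GMP KO arrays for each of the 3 genes. In LSK, Hexa differed by 0.53 (adjusted p = 0.112), Arsa by 0.26 and Smpd1 by -0.03, and none passed.

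The activator proteins behaved unlike each other. Psap encodes prosaposin, which is cut into the saposins that present sphingolipids to their hydrolases. It lay at 10.18, 10.06 and 9.95 in LSK WT and at 10.56, 11.48 and 10.87 in LSK KO. Its GMP levels were 10.25, 10.13 and 9.85 in WT and 12.27, 12.12 and 12.31 in KO. The WT groups overlapped between populations, the GMP KO arrays were close together and far above them, and the LSK KO arrays lay between and spread over nearly 1 unit, highest on replicate 2. Psap rose by 2.16 in GMP (SE 0.19, adjusted p = 7.92e-06, limma), 4.46-fold, and by 0.90 in LSK (SE 0.19, adjusted p = 0.0137), 1.87-fold. Gm2a, the activator for ganglioside breakdown by beta-hexosaminidase, had group means between 10.54 and 10.59, with differences of 0.06 in LSK and 0.02 in GMP.

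For lipids other than sphingolipids, Npc2, the soluble carrier that hands cholesterol to the lysosomal membrane, rose in both populations. It went from 10.71 ± 0.15 to 11.19 ± 0.03 in LSK and from 11.01 ± 0.04 to 11.53 ± 0.06 in GMP (SD, n = 3 each; adjusted p = 0.00871 and 0.00179, limma). Lipa, the acid lipase that frees cholesterol from its esters, rose by 0.59 in LSK (SE 0.16, adjusted p = 0.0482) and differed by 0.46 in GMP (adjusted p = 0.0619), where all KO arrays lay above all WT arrays. The phospholipase Pla2g15 differed by -0.04 in LSK and 0.16 in GMP and passed in neither.

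In the group of peptidases, a thioesterase, phosphatases and progranulin, 4 of 7 members rose in LSK and 5 of 7 in GMP. Grn encodes progranulin, a secreted and lysosomal protein that is cut into granulins. It lay at 10.21, 10.21 and 10.13 in LSK WT and at 11.08, 11.40 and 11.23 in LSK KO. In GMP it lay at 10.78, 10.67 and 10.64 in WT and at 11.98, 12.15 and 12.28 in KO. The spread within each group was small against the gap, and among the members Grn had the smallest p in GMP. The increase was 1.06 in LSK (SE 0.11, adjusted p = 9.16e-05, limma), 2.08-fold, and 1.44 in GMP (SE 0.11, adjusted p = 2.19e-06), 2.71-fold.

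The serine carboxypeptidase Scpep1 lay at 7.69, 7.56 and 7.43 in LSK WT and at 8.49, 9.02 and 8.77 in LSK KO. Its GMP values were 7.92, 8.23 and 8.01 in WT and 8.84, 9.01 and 9.27 in KO. The groups were separate in both populations, with increases of 1.20 in LSK (SE 0.15, adjusted p = 4.78e-04, limma) and 0.98 in GMP (SE 0.15, adjusted p = 6.36e-04). Tpp1, the tripeptidyl peptidase lost in a form of Batten disease, lay at 8.94, 8.78 and 8.69 in LSK WT and at 9.40, 9.62 and 9.45 in LSK KO. Among GMP arrays it read 8.86, 9.0 and 8.85 in WT and 9.57, 9.96 and 10.05 in KO. KO arrays lay above WT arrays throughout, by 0.69 in LSK (SE 0.13, adjusted p = 0.00684) and 0.95 in GMP (SE 0.13, adjusted p = 2.50e-04).

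Dpp7, a dipeptidyl peptidase whose window holds TCACGTGA, lay at 6.59, 6.65 and 6.38 in GMP WT and at 7.60, 8.06 and 7.88 in GMP KO. In LSK it lay at 6.40, 6.32 and 6.40 in WT and at 6.71, 7.09 and 6.74 in KO. The arrays were separate in both populations, but the LSK difference of 0.48 did not pass (adjusted p = 0.0641, limma), while the GMP increase was 1.30 (SE 0.13, adjusted p = 3.40e-05), 2.47-fold. Ppt1, which removes palmitate from proteins, showed the opposite order. It lay at 9.48, 9.17 and 9.51 in LSK WT and at 10.02, 10.32 and 10.09 in LSK KO, and in GMP at 9.97, 10.14 and 10.06 in WT and at 10.05, 10.36 and 10.23 in KO. The GMP groups overlap, with a difference of 0.16 that did not pass, and the LSK increase was 0.76 (SE 0.12, adjusted p = 0.00294, limma), 1.69-fold.

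The phosphatases parted as well. Acp2, the lysosomal acid phosphatase, rose in GMP by 0.76 (SE 0.14, adjusted p = 0.00253, limma), and its LSK difference of 0.26 did not pass. Acp5, the tartrate-resistant phosphatase of osteoclasts and macrophages, differed by 0.04 in LSK and by -0.14 in GMP and passed in neither. Its LSK KO arrays spread from 6.61 to 7.65, with replicate 2 the highest.

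Of the 13 calls in LSK, 8 held under every alternative tried: Gla, Grn, Galc, Scpep1, Ppt1, Man2b1, Npc2 and Tpp1. Glb1 lost its call when any of the 6 LSK arrays was left out (adjusted p from 0.0534 to 0.14), Lipa without LSK KO replicates 2 and 3 or any LSK WT replicate (0.085 to 0.19), Gaa without LSK KO replicates 1 and 3 or LSK WT replicates 1 and 3 (0.0523 to 0.0601), Asah1 without LSK KO replicates 2 and 3 or LSK WT replicates 2 and 3 (0.0516 to 0.0688), and Psap without LSK WT replicate 2 (0.0538) or 3 (0.0599). Without LSK WT replicate 3 the count was 8 in place of 13. In GMP, 17 of 19 calls held throughout. Man2b1 lost its call without GMP KO replicate 2 or 3 or any GMP WT replicate (0.0734 to 0.149), and Fuca1 without GMP KO replicate 1 or 3 or any GMP WT replicate (0.0525 to 0.079). Both also lost it when arrays were centred on their medians and when the GMP groups were fitted by themselves, and Man2b1 moved to 0.45 when quantile normalisation was repeated. Without GMP KO replicate 1 the GMP counts were 20 higher and 1 lower.

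A separate question is whether the effect of Lamtor2 loss differed between LSK and GMP. For 2 of 33 members the KO effect was higher in LSK than in GMP and for 3 it was lower, against 5.34% and 2.64% of all genes, and the median difference of effects was 0.04 against -0.030 over all genes. With quantile normalisation repeated the split was 1 higher and 4 lower, and with arrays centred it was 3 and 3. The KO effect in LSK was lower than in GMP for Ids, by -0.78 (SE 0.14, adjusted p = 0.00538, limma), for Psap, by -1.25 (SE 0.26, adjusted p = 0.0122), and for Dpp7, by -0.83 (SE 0.19, adjusted p = 0.0178). It was higher in LSK for Arsb, by 0.83 (SE 0.15, adjusted p = 0.00702), and for Ppt1, by 0.60 (SE 0.17, adjusted p = 0.0489).

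The array values given for these genes show different shapes behind these differences. Psap and Dpp7 were higher in KO arrays of both populations and more so in GMP. Ids rose in GMP and lay slightly lower on all LSK KO arrays, and Arsb fell in GMP with overlapping LSK groups. Next in order were Naglu (-0.70, adjusted p = 0.0549), Galns (0.67, adjusted p = 0.0654) and Idua (-0.60, adjusted p = 0.0872), which did not pass. Without GMP KO replicate 1, 1 member was higher and 6 were lower. Naglu (-0.76, adjusted p = 0.0383), Idua (-0.78, adjusted p = 0.00386) and Sgsh (-0.75, adjusted p = 0.0289, against -0.53 and 0.238 with all arrays) then passed, and Ppt1 did not (0.52, adjusted p = 0.0676). Without GMP KO replicate 3 the split was 4 higher and 3 lower. Gla (0.62, adjusted p = 0.0233, limma), Hgsnat (0.63, adjusted p = 0.0309) and Galns (0.77, adjusted p = 0.037) then passed. The split thus depends on which GMP KO array is left out. Ppt1 lost its call in 15 of 20 alternatives (adjusted p up to 0.215, with a difference of 0.39 when quantile normalisation was repeated), among them the removal of any array other than GMP KO replicate 2. Dpp7 lost it without GMP WT replicate 3 (0.0501) or LSK KO replicate 3 (0.0516), and the removal of either of these arrays left 3 of the 5 calls. Ids, Arsb and Psap held throughout.

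Among WT cells, where Lamtor2 is intact, many of these genes were lower in the stem and progenitor pool than in GMP. Of 33 members, 14 were lower in WT LSK than in WT GMP and 2, Ids and Sgsh, were higher, against 9.32% and 10.3% of all genes. The median difference was -0.21 against -0.029 over all genes. Gla was 3.23-fold lower in LSK WT than in GMP WT (difference -1.69, SE 0.15, adjusted p = 4.85e-06, limma). Arsb was 3.14-fold lower (-1.65, SE 0.11, adjusted p = 2.89e-07), and its second probe set gave -1.48. These 2 genes, a sphingolipid hydrolase and a sulfatase, had the largest differences among the members. Galns lay at 6.97, 7.25 and 7.11 in LSK WT and at 8.40, 8.31 and 8.02 in GMP WT, a difference of -1.13 (SE 0.15, adjusted p = 7.95e-05). Ids was 1.84-fold higher in LSK WT (0.88, SE 0.10, adjusted p = 2.25e-05). For all 4 genes the arrays of the populations were separate.

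Of the others, Hexa (-1.07), Neu1 (-0.92), Gusb (-0.71), Ppt1 (-0.67), Grn (-0.52) and Man2b1 (-0.44) were lower in LSK WT under every alternative, and Sgsh was higher by 0.79. Lipa (-0.55), Scpep1 (-0.49), Asah1 (-0.43), Manba (-0.36) and Npc2 (-0.30) were lower with all arrays, but each lost its call when single WT arrays were left out. Manba lost it without any of the 6 arrays (adjusted p from 0.0823 to 0.136), Npc2 without any but LSK WT replicate 1 (0.0621 to 0.156), and Lipa without GMP WT replicate 1 or 2 or LSK WT replicate 1 (0.0513 to 0.113). Scpep1 lost it without GMP WT replicate 2 or 3 or LSK WT replicate 2 or 3 (0.0668 to 0.134), and Asah1 without GMP WT replicate 2 (0.0651) or LSK WT replicate 3 (0.0583). When quantile normalisation was repeated Npc2 stood at -0.16 (adjusted p = 0.262), Grn at -0.34 and Man2b1 at -0.29.

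**Figure D3:**
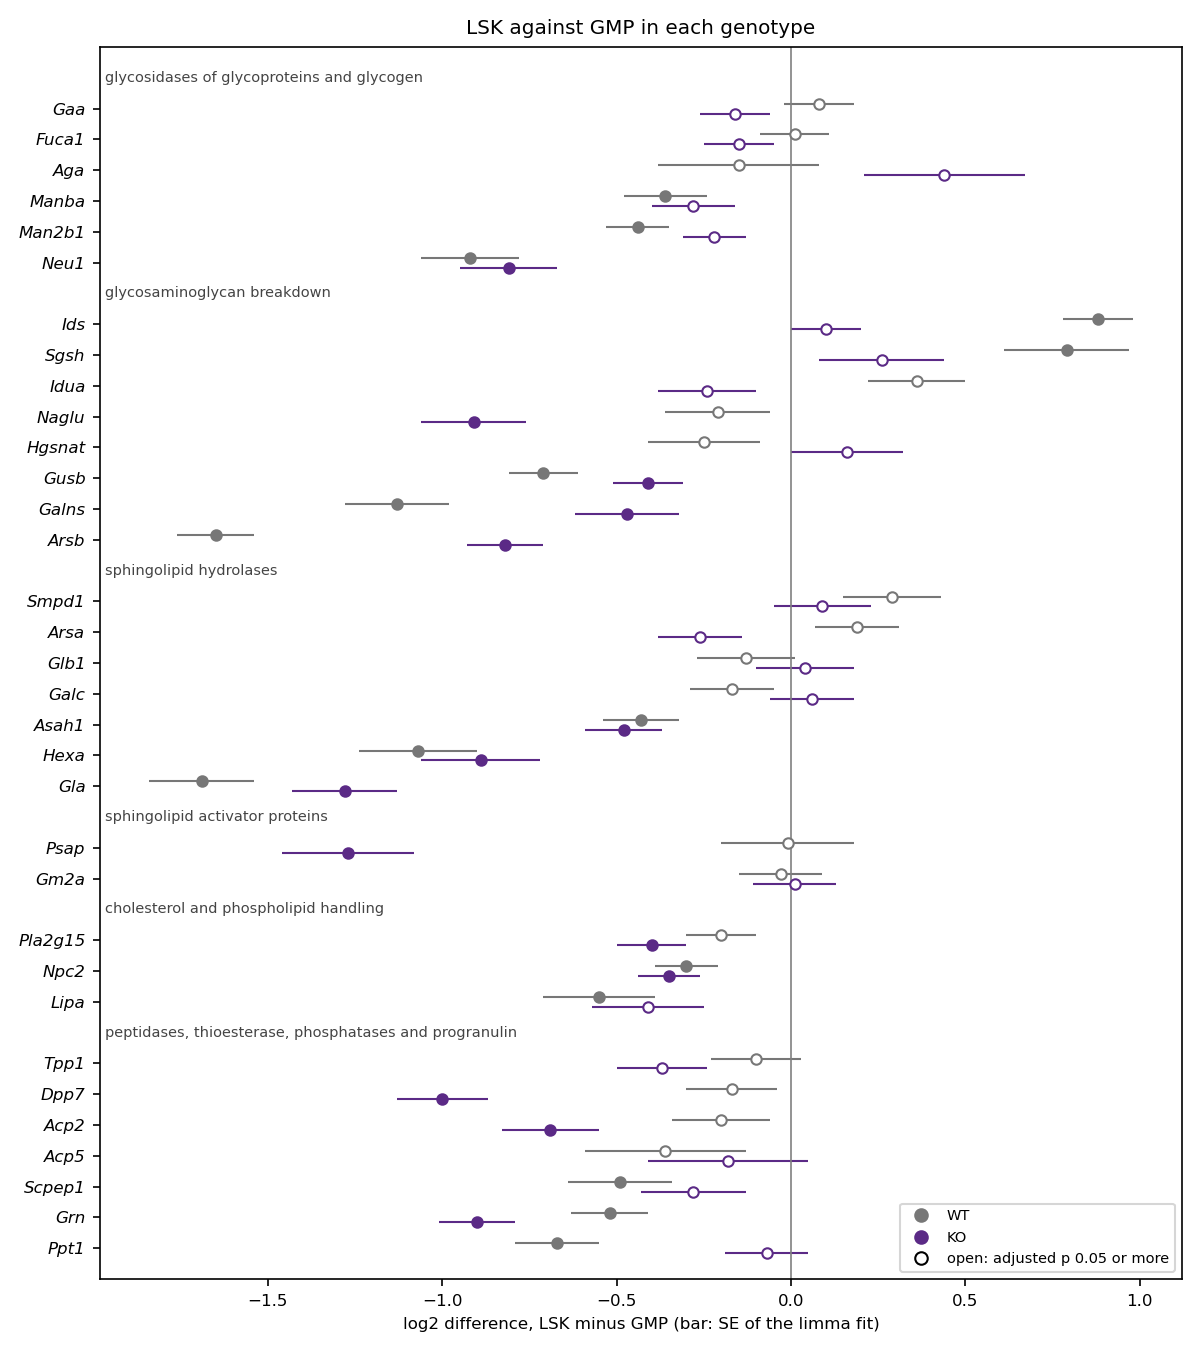
Difference between LSK and GMP for each of the 33 genes in WT (grey) and in KO (purple), on the log2 scale, with the SE of the limma fit as bars. Filled points passed an adjusted p of 0.05. Gla lies far to the left in both genotypes (-1.69 and -1.28), Ids and Sgsh lie to the right in WT, and Psap and Dpp7 are filled in KO and open in WT.

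Among KO cells, 14 of 33 members were lower in LSK than in GMP and 0 were higher, against 5.79% and 10.1% of all genes, with a median of -0.28 against -0.049. At an unadjusted limma p under 0.05, 19 members were lower and 0 higher, against 2874 lower and 3489 higher of all 19937 genes. Gla was 2.43-fold lower in LSK KO (-1.28, SE 0.15, adjusted p = 1.41e-04, limma) and Grn 1.86-fold lower (-0.90, SE 0.11, adjusted p = 1.13e-04). Dpp7 differed by -1.0 (SE 0.13, adjusted p = 3.01e-04) and Arsb by -0.82 (SE 0.11, adjusted p = 2.84e-04). The arrays of these 4 genes did not overlap between the populations. Psap (-1.27), Naglu (-0.91), Hexa (-0.89), Neu1 (-0.81) and Acp2 (-0.69) were lower under every alternative too. Asah1 (-0.48), Galns (-0.47), Gusb (-0.41), Pla2g15 (-0.40) and Npc2 (-0.35) were lower with all arrays.

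Those last 5 lost their calls in a fit of the KO arrays alone, which left 9 of the 14. Galns also lost it without GMP KO replicate 1 or 3 or LSK KO replicate 1 or 3 (adjusted p from 0.101 to 0.172), and Npc2 without GMP KO replicate 3 or LSK KO replicate 1 or 3 (0.0525 to 0.0797). Gusb lost it without LSK KO replicate 1 (0.0589) or 3 (0.0704), and Pla2g15 without LSK KO replicate 3 (0.0606). Without GMP KO replicate 1, 16 members were lower and 0 higher. Psap, Dpp7, Acp2, Naglu and Pla2g15 were lower in LSK among KO cells and did not pass among WT cells. Ids and Sgsh were higher in LSK among WT cells and did not pass among KO cells. The other way round, Manba, Man2b1, Lipa, Ppt1 and Scpep1 were lower in LSK among WT cells and did not pass among KO cells. For each gene the difference between these contrasts is the difference of KO effects tested above. Of the genes just named it passed for Psap, Dpp7, Ids and Ppt1, and not for the others.

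Genes around the hydrolases in the same pathway showed mixed behaviour. The list counts from here on stand against 2.49% of all genes higher and 1.96% lower in LSK. In GMP they stand against 5.78% higher and 10.3% lower. Of 17 other soluble lysosomal hydrolases measured, 3 were higher in KO in LSK, 3 were higher in GMP and 1 was lower in GMP, with medians of 0.22 and 0.10. Another 9 names on that list were not analysed here. Ctsa, the protective protein that forms a complex with Neu1 and Glb1, rose by 0.68 in LSK (adjusted p = 0.00763, limma) and 1.07 in GMP (adjusted p = 1.05e-04), and Dnase2a, the acid nuclease, by 1.16 (adjusted p = 0.0011) and 1.17 (adjusted p = 3.56e-04). The fucosidase Fuca2 rose by 0.75 in LSK (adjusted p = 6.31e-04) and the sulfatase Arsg by 0.66 in GMP (adjusted p = 0.00361).

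Of 14 genes for tagging hydrolases with mannose 6-phosphate, activating sulfatases and sorting, 1 was higher and 1 lower in LSK, and 4 were higher and 1 lower in GMP. Sort1, a receptor that carries prosaposin and other cargo from the Golgi, fell by 0.64 in LSK (adjusted p = 0.00178, limma) and fell by 1.23 in GMP (adjusted p = 3.93e-06). Its relative Sorl1 rose by 0.73 in LSK (adjusted p = 0.0421), a call that was lost on leaving out any LSK array but LSK KO replicate 1. The mannose 6-phosphate receptor Igf2r was higher by 1.10 in GMP (adjusted p = 0.0136), from a WT mean of 5.47, and Cln6, which helps enzymes leave the endoplasmic reticulum, rose by 0.40 (adjusted p = 0.0134). In GMP the count of calls in this list was 3 without GMP WT replicate 1, 1 without replicate 2 and 2 without replicate 3.

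The cathepsins and legumain, the proteases set apart from the members, were higher in 7 of 13 cases in LSK and 8 of 13 in GMP, with 0 lower and medians of 1.07 and 0.79 (at an unadjusted limma p under 0.05, 9 higher and 0 lower in each). Of all 19937 genes, 1626 were higher and 1547 lower in LSK at that unadjusted p, and 2160 and 3435 in GMP. Ctsd rose by 1.13 in LSK and 1.64 in GMP (adjusted p = 9.02e-04 and 1.60e-05, limma), Ctsz by 1.07 in LSK (adjusted p = 4.00e-04) and Ctsb by 2.05 in GMP (adjusted p = 2.11e-05). Lgmn, legumain, went from 6.17 ± 0.23 to 8.82 ± 0.59 in LSK and from 5.68 ± 0.12 to 10.72 ± 0.29 in GMP (SD, n = 3 each). These medians lie above those of the members, a contrast that was not tested.

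Of 22 lysosomal membrane proteins, 4 were higher in LSK and 9 in GMP, with 0 lower and medians of 0.18 and 0.28. At an unadjusted limma p under 0.05, 1626 and 2160 of all 19937 genes were higher and 1547 and 3435 lower. Of these membrane proteins, 9 and 11 were higher and 0 lower at that p. In LSK the examples are Lamp2 (0.66, adjusted p = 0.0014, limma), Cd63 (0.55, adjusted p = 0.00286) and Ostm1 (0.42, adjusted p = 0.0274), and 2 calls were left when any LSK array but LSK KO replicate 1 was left out. In GMP they are the cholesterol transporter Npc1, the membrane partner of Npc2 (1.74, adjusted p = 1.88e-06), and the cation channels Mcoln1 (0.98, adjusted p = 9.65e-06) and Mcoln2 (1.88, adjusted p = 2.43e-05).

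Among 11 MiT/TFE factors, their regulators and other proteins that bind E-boxes, 3 were higher and 1 lower in LSK, and 4 were higher and 1 lower in GMP. The folliculin partners Fnip1 and Fnip2 rose in both, Fnip1 by 0.84 in LSK and 0.79 in GMP (adjusted p = 4.00e-04 and 1.89e-04, limma) and Fnip2 by 1.33 and 3.34 (adjusted p = 2.21e-04 and 2.57e-08). Folliculin itself, Flcn, rose by 0.60 in GMP (adjusted p = 0.00392), and Tfec, a member of the MiT/TFE family, fell by 0.69 in LSK (adjusted p = 0.00961). The other GMP calls, named after their values were seen, were Tfec, which fell by 0.66 (adjusted p = 0.00438), and Tfeb, which rose by 0.41 (adjusted p = 0.0093). In LSK Tfeb differed by -0.08 and did not pass, and the remaining LSK call was Myc, which rose by 0.44 (adjusted p = 0.016). Tfe3 (-0.23 in LSK, 0.32 in GMP) and Mitf (-0.20 and 0.27) passed in neither population. Without LSK WT replicate 2 the LSK count was 2 higher and 0 lower. An array reads transcript levels, so where the factors lay in the cell was not measured.

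**Figure D4:**
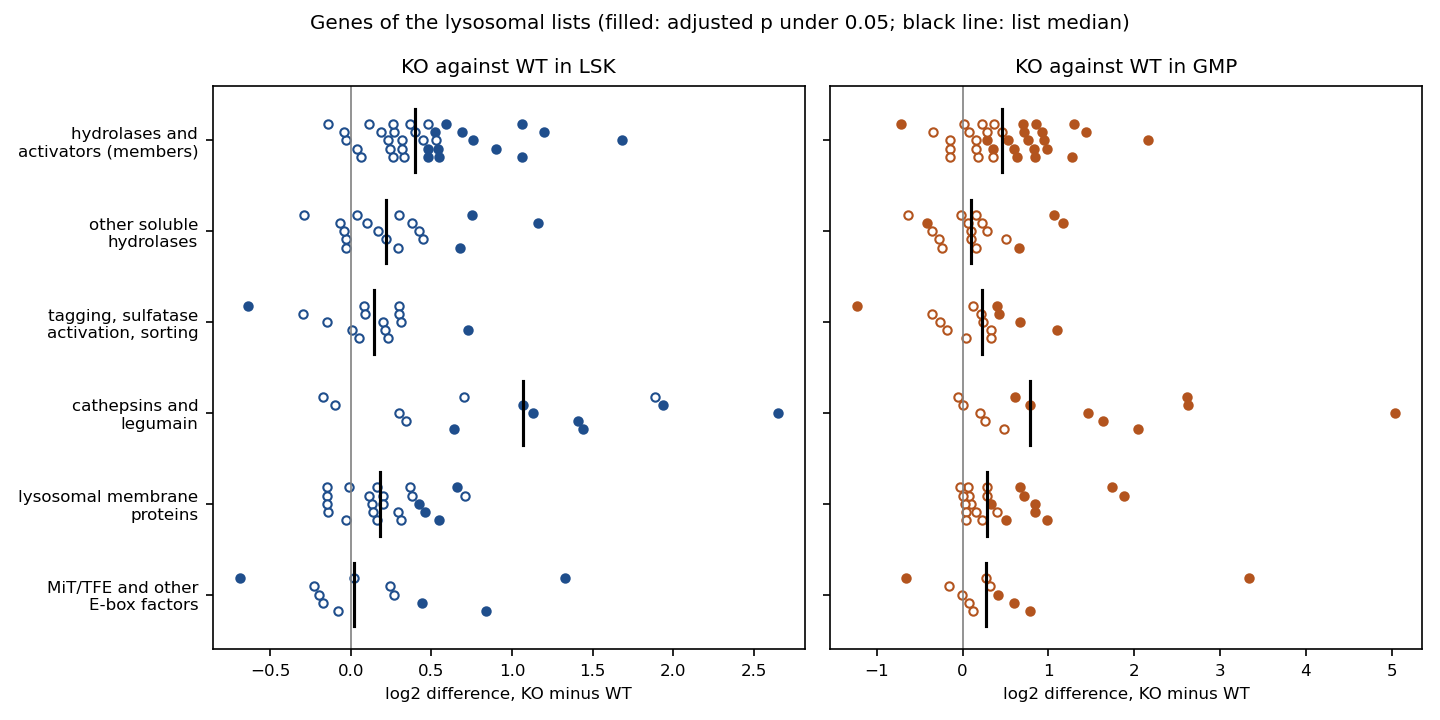
Difference between KO and WT of every measured gene in 6 lysosomal lists, in LSK (left) and GMP (right), on the log2 scale. Filled points passed an adjusted p of 0.05 and the black line is the median of a list, which for the 33 members is 0.40 in LSK and 0.46 in GMP and for cathepsins and legumain 1.07 and 0.79.

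Many markers of macrophages were higher in KO as well. Of 19 macrophage markers measured, 7 were higher in KO in LSK and 12 in GMP, with 0 lower and medians of 0.70 and 1.06 (at an unadjusted limma p under 0.05, 11 and 13 higher, and 0 and 1 lower). Of all genes, 2.49% were higher in LSK and 5.78% in GMP at the adjusted threshold. At the unadjusted p, 1626 and 2160 of all 19937 genes were higher, and 1547 and 3435 lower. The mean level of the macrophage markers lay between 5.99 and 6.22 on the LSK WT arrays and between 6.88 and 7.63 on the LSK KO arrays. In GMP it lay between 6.29 and 6.41 in WT and between 7.93 and 8.43 in KO. C1qc had means of 6.55 in LSK WT and 8.75 in LSK KO, and of 6.00 in GMP WT and 10.83 in GMP KO, and Cd68, a lysosomal membrane protein of macrophages, of 8.29, 10.56, 9.11 and 11.98 in the same order.

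Not all macrophage markers passed, and some did not rise. Cd163 differed by -0.23 in LSK and -0.35 in GMP, and Vcam1 by -0.21 and -0.09. Csf1r differed by 0.90 in LSK and -0.09 in GMP. None of these passed. Adgre1, which encodes a surface antigen of tissue macrophages, had means of 5.07 in LSK WT, 5.77 in LSK KO, 6.78 in GMP WT and 7.34 in GMP KO, and its differences of 0.70 in LSK and 0.56 in GMP missed the threshold. Spic, a transcription factor of red pulp macrophages, went from 4.70 ± 0.28 to 5.75 ± 0.77 in GMP (SD, n = 3 each; adjusted p = 0.0214, limma), and its LSK difference of -0.31 did not pass. The mean of 10 mast cell and basophil markers also moved, from between 6.01 and 6.53 in LSK WT to between 7.23 and 8.02 in LSK KO, and from between 7.49 and 7.90 to between 8.12 and 9.20 in GMP. The part of either cell type in the levels of the hydrolases was not tested.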

How the data were processed

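Per the labels' protocols, total RNA was purified on Qiagen RNeasy Micro columns, amplified (NuGEN WT-Ovation Pico) and biotin-labelled. Per the submitters' processing notes, the authors used RMA, which corrects background, normalises quantiles and summarises probe sets; its version and the genome build are not given in the sources used. The deposited values are on a log2 scale, read from array medians near 6. Of 34760 probe sets, 22961 were in the annotation used, 21640 with 1 gene symbol (21553 named through the gene identifier in a RefSeq table of GRCm38.p6) and 1321 with several. They gave 19937 genes, each represented by the probe set with the highest mean (954 genes had several). The number of arrays limits the precision.

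All 4 groups were fitted at once with limma 3.58.1 in R 4.3.3 (lmFit, eBayes; residual degrees of freedom 8, prior 5.16). P-values are two-sided and were adjusted by Benjamini-Hochberg over 19937 genes, with a threshold of 0.05. The fit was checked on simulated data for KO against WT in LSK only, with the same spread of a gene in all 4 groups. That check does not cover the wider spread of the GMP KO arrays. The labels do not say whether replicate numbers pair the samples, and the main fit treated the arrays as unpaired. Array-by-array values are given for the members with the smallest p (6 in each KO contrast, 4 in each other), and for pathway lists up to 3 genes in each KO contrast. Members and lists were chosen with earlier results of these data known. Alternatives were repeated quantile normalisation, median centring, leaving out the dimmest 30% of genes, the mean of probe sets, trend and robust options, array weights, fits of the compared groups alone, replicate blocks, and each array left out. Protein sequences were not analysed here.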

Additional observations from a re-analysis of the deposited data

Results flagged for a closer look

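The KO effect differed between LSK and GMP for 5 members by the limma interaction, LSK minus GMP. The difference was -1.25 for Psap, -0.83 for Dpp7 and -0.78 for Ids, whose effect was higher in GMP, and 0.83 for Arsb and 0.60 for Ppt1, whose effect was higher in LSK. Ids, Arsb and Psap passed under every alternative tried, while Dpp7 missed the threshold under 2 of 20 and Ppt1 under 15 of 20.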

How the results depend on the processing

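No call of a member changed sign under any alternative in the 5 comparisons. Calls held under every alternative for 8 of 13 members in LSK, 17 of 19 in GMP, 3 of 5 in the difference of KO effects, 11 of 16 in WT LSK against WT GMP and 9 of 14 in KO LSK against KO GMP. In fits of the compared groups alone the counts were 15 in LSK, 17 in GMP, 17 in WT and 9 in KO. In the main fit, where all groups share the estimate of the spread, they were 13, 19, 16 and 14. The GMP KO arrays deviated most from their group means, by a root mean square of 0.178 to 0.270 over all genes. On the other arrays it was 0.108 to 0.146. The part of this spread in the counts was not tested. On leaving out 1 array at a time the counts of calls ran from 8 to 11 in LSK, 17 to 21 in GMP, 3 to 7 in the difference, 11 to 14 in WT and 10 to 16 in KO. With a replicate block by number the counts were 12, 19, 4, 14 and 13, and with a block by genotype and number the last 3 were 4, 14 and 13. Deviations of same-numbered arrays of different groups had correlations between -0.23 and 0.28. With 3 arrays a group, these values cannot decide whether the numbers pair the samples. The block by number ended the calls of Glb1 in LSK (adjusted p = 0.0559, limma), Man2b1 in GMP (0.0718), Ppt1 in the difference (0.0636), Manba and Npc2 in WT (0.0672 and 0.0523) and Galns in KO (0.065), and added Lipa in GMP (0.0463). The block by genotype and number ended the same calls in the last 3 comparisons (0.0619 for Ppt1, 0.107 for Manba, 0.0657 for Npc2 and 0.0826 for Galns).

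Signs turned for members that did not pass, and the cause was not tested. They turned under at least 1 alternative for 3 of 20 such members in LSK and 5 of 14 in GMP. The counts were 8 of 28 in the difference of KO effects, 4 of 17 in WT and 8 of 19 in KO. The values that follow are those of KO against WT in LSK and in GMP. With 1 array left out at a time, the LSK difference of Acp5 ran from -0.28 (LSK KO replicate 2 out) to 0.24, that of Smpd1 from -0.09 to 0.05 (LSK WT replicate 1 out) and that of Pla2g15 from -0.09 to 0.06 (LSK WT replicate 2 out), and Acp5 was also -0.07 and -0.01 with LSK WT replicate 1 or 3 out. In the same way the GMP difference of Aga ran from -0.33 to 0.23 and that of Hgsnat from -0.36 to 0.06 (GMP KO replicate 1 out for both positive values), that of Gm2a from -0.12 (GMP KO replicate 2 out) to 0.13, with -0.02 when GMP WT replicate 3 was out, and that of Acp5 from -0.28 to 0.01 (GMP KO replicate 2 out). With array weights Aga stood at 0.12 and Hgsnat at 0.07 in GMP, and with arrays centred Gusb stood at -0.00 and Gm2a at -0.05. The deposited values hold no background measure, so how far low signal limits the folds of dim members was not tested. With 3 arrays a group, small differences can be missed.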
